A study of Mus musculus with 8 samples.

Results

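The genes described here make, bind, degrade and sense retinoic acid, the active form of vitamin A. They are 10 genes of the 19937 measured, namely Rdh10, Aldh1a2, Aldh1a3, Cyp26a1, Cyp26b1, Crabp1, Crabp2, Rara, Rarb and Rarg, and each had a single probe set annotated to its symbol alone. The cells were R1 mouse embryonic stem cells, a male line of 129X1 x 129S1 background derived from the inner cell mass of a blastocyst. In the shMKRN1 group (4 arrays, numbered 2, 4, 6 and 8) they had been transfected transiently with 2 µg of the pLKO.1 plasmid carrying a hairpin against MKRN1, an RNA-binding ubiquitin ligase. In the shGFP group (4 arrays, numbered 1, 3, 5 and 7) the same plasmid carried a hairpin against GFP, which these cells lack. Both groups grew on gelatin with LIF and 15% serum. Puromycin at 2 µg/mL was given over the last 4 days, and RNA was taken 6 days after transfection. No retinoid is named among the agents in the labels. Knockdown rests on 1 hairpin sequence in transfected populations, so an effect of the hairpin on other transcripts cannot be told apart from loss of MKRN1. Whether the arrays of a group stand for separate transfections is not stated, so the errors and p-values below cover the spread between arrays, which may be technical only.

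Retinol from the medium is oxidised to retinaldehyde by retinol dehydrogenases such as RDH10, and retinaldehyde to retinoic acid by the ALDH1A enzymes. CRABP1 and CRABP2 bind retinoic acid in the cytoplasm, and the CYP26 enzymes hydroxylate it and so end its action. The receptors RARα, RARβ and RARγ pair with RXR proteins on response elements in DNA, typically a direct repeat of a hexamer with a spacer of 5 bases, and Cyp26a1 and Rarb are textbook genes with such an element close to their start. In embryonic stem cells retinoic acid is a widely used agent of differentiation, and Cyp26a1 is known as a gene that it induces strongly.

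Cyp26a1 and Rarb also share this element in the sequences used here. RefSeq promoter windows on GRCm38.p6, from 250 bases before to 50 bases after the annotated start, were at hand for 7 of the 10 genes. They were searched on both strands for 2 hexamers in the same orientation, 5 bases apart. Each hexamer could be the consensus AGGTCA, its variant AGTTCA, its variant GGGTCA or its variant GGTTCA. Cyp26a1 and Rarb held the repeat, and the windows of Rara, Rarg, Crabp1, Aldh1a2 and Cyp26b1 did not. Of all 32851 windows, 32 held it (0.0974%). The windows of both genes are shown because they carry the element through which retinoic acid receptors are known to act, with the whole repeat in capitals. The Cyp26a1 window lies at chr19:37697558-37697857 on the plus strand and the Rarb window at chr14:16575427-16575726 on the minus strand.
Cyp26a1: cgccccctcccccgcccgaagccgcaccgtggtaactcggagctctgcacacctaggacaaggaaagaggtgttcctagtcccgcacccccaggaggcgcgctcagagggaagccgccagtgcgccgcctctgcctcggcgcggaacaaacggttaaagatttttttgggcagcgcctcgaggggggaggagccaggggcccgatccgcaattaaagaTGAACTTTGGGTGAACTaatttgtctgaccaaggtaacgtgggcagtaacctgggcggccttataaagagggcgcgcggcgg
Rarb: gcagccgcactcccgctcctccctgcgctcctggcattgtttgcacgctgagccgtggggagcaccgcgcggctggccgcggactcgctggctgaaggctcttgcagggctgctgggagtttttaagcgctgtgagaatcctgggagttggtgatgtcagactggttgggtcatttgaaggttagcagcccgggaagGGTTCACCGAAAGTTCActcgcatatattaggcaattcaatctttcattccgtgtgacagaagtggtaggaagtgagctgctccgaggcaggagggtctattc
Relative to the annotated start, the repeat of Cyp26a1 spans bases -32 to -16 on the strand opposite to the gene, and that of Rarb spans -53 to -37 on the gene's own strand. Read along the repeat's own strand, with only the hexamers in capitals, both end in the hexamer AGTTCA.
Cyp26a1 repeat: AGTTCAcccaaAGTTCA
Rarb repeat: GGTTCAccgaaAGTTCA
No window of the 7 genes held such a repeat with a spacer of 1 or 2 bases, which 0.222% and 0.268% of all windows held.

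These 10 genes were chosen by pathway with the differences between these shMKRN1 and shGFP arrays already known, so their differences are given as a description and without a test. Values are RMA log2 levels, and a difference is shMKRN1 minus shGFP with its standard error from the limma fit across all genes. Of the 10 genes, 1 (Cyp26a1, higher) passed that fit at an adjusted p of 0.05, which 4.49% of all genes did, 3.66% as higher. Separate groups were seen for 1 of the 10, again Cyp26a1, and for 14.1% of all genes. The median difference of the 10 was 0.04, against 0.01 for all genes. In bulk RNA, fewer cells that express a gene and less of its RNA per cell cannot be told apart.

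Cyp26a1, which encodes the main retinoic acid hydroxylase of the early embryo (Entrez gene 13082, probe set 10462853), stood apart from the other 9 genes by the size of its difference. Its level was 7.58, 7.51, 7.21 and 7.43 in shMKRN1 arrays 2, 4, 6 and 8, against 5.53, 6.27, 6.46 and 6.37 in shGFP arrays 1, 3, 5 and 7. All 4 shMKRN1 arrays lay above all 4 shGFP arrays. The mean was 7.43 ± 0.16 in shMKRN1 and 6.16 ± 0.43 in shGFP (SD, n = 4 each). The difference of 1.28 (SE 0.18; 95% confidence interval 0.87 to 1.68) corresponds to 2.42-fold (1.83 to 3.21). It was the fifth largest increase of the 19937 genes, and 12 genes both passed the fit and were at least 2-fold higher.

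The low end of the Cyp26a1 measurement lay among genes that stem cells do not use. Olfactory and vomeronasal receptor genes (1190 on the array) are silent in these cells. The median of their mean levels was 4.52, and 95% of them had a mean level of up to 6.50. All 4 shMKRN1 arrays were above that level for Cyp26a1, and none of the 4 shGFP arrays was. Against the same percentile taken on each array, 4 shMKRN1 arrays and 1 shGFP array (shGFP 5) were above it. The shGFP level is therefore not shown to differ from that of silent genes, and the 2.42-fold is a ratio of measured values whose shGFP side is near background. The spread also lay mostly in shGFP. The SD within groups, 0.32, was larger than that of 99.5% of all genes, and array shGFP 1 was 0.63 below its group mean. Without shGFP 1 the difference was 1.07, or 2.10-fold, and it stayed past the threshold in each of the 8 fits that left out 1 array.

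**Figure D1:**
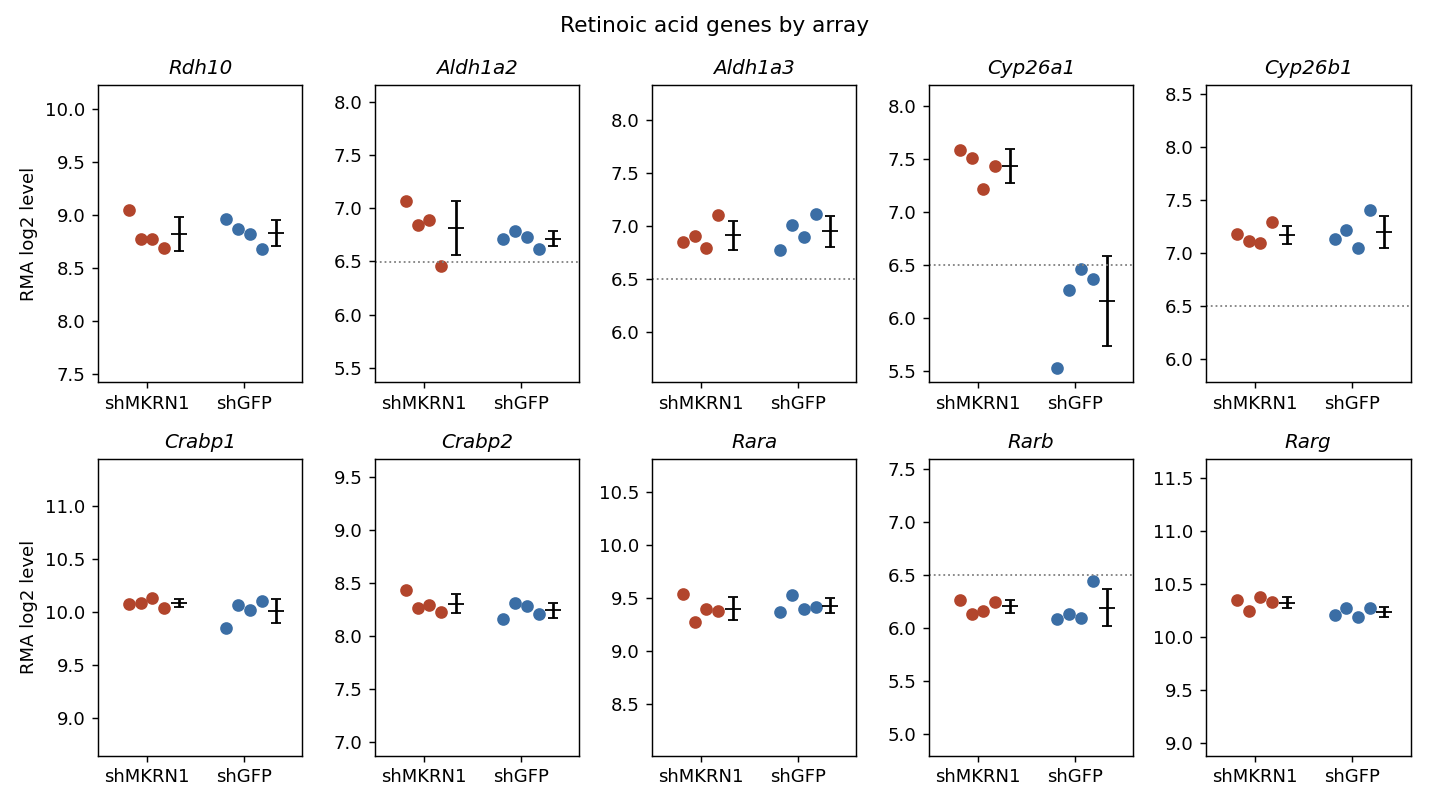
RMA log2 levels of the 10 genes, with shMKRN1 arrays (red) left of shGFP arrays (blue) in array order; black marks are the mean ± SD of 4 arrays, every panel spans the same number of log2 units, and the dotted line at 6.50 is the level below which 95% of silent receptor genes lay. The groups are separate for Cyp26a1 and overlap in the other 9 panels.

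Cyp26b1, the hydroxylase gene of the same family known from hindbrain, limb and testis, did not follow Cyp26a1. Its level was 7.17, 7.11, 7.09 and 7.29 in the shMKRN1 arrays, against 7.13, 7.21, 7.04 and 7.40 in the shGFP arrays. The groups overlapped fully, and the highest values were those of arrays shMKRN1 8 and shGFP 7. The difference was -0.03 (SE 0.080; interval -0.21 to 0.15). Within each group the Cyp26b1 levels ranked as the 95th percentile of silent receptor genes did on the same arrays. That percentile was highest in shMKRN1 8 (6.62) and shGFP 7 (6.74) of their groups. Cyp26b1 was above it in 4 shMKRN1 and 4 shGFP arrays, and the part of background in its levels was not tested. The remaining family gene, Cyp26c1, lies next to Cyp26a1 on chromosome 19 with no protein-coding gene between them in RefSeq. It averaged 7.13 ± 0.13 in shMKRN1 and 7.09 ± 0.13 in shGFP, a difference of 0.04 (SE 0.083; limma adjusted p = 0.857). Among the 3 measured genes on either side of Cyp26a1, chosen after the values were seen, differences ran from -0.08 for Cep55, a gene of cell abscission, to 0.14 for the exocyst gene Exoc6. Hhex, a homeobox gene of endoderm and blood progenitors in this neighbourhood, had a difference of 0.07 (SE 0.049). The interval of none of these 6 neighbours reached the lower bound of Cyp26a1.

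The synthesis genes overlapped between the groups. Rdh10, whose enzyme makes most embryonic retinaldehyde, had levels of 9.05, 8.78, 8.77 and 8.68 in the shMKRN1 arrays, against 8.96, 8.87, 8.82 and 8.68 in the shGFP arrays. Array 2 was the highest and array 8 the lowest of the shMKRN1 arrays, and the difference was -0.01 (SE 0.088; interval -0.21 to 0.18). Aldh1a2, the main retinaldehyde dehydrogenase gene of embryonic mesoderm, had 7.07, 6.84, 6.89 and 6.46 in the shMKRN1 arrays, against 6.71, 6.79, 6.73 and 6.62 in the shGFP arrays. Of the shMKRN1 values 3 were above every shGFP value and the fourth, array shMKRN1 8, was below them all and below the level of silent receptor genes. Its difference was 0.10 (SE 0.11; interval -0.14 to 0.35), the widest interval of the 9 genes other than Cyp26a1. Aldh1a3, the dehydrogenase gene known from eye and nasal development, had 6.84, 6.90, 6.79 and 7.10 in the shMKRN1 arrays, against 6.77, 7.01, 6.89 and 7.11 in the shGFP arrays, and its difference was -0.04 (SE 0.087; interval -0.23 to 0.16).

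The binding protein genes differed little. Crabp1, whose protein holds retinoic acid in the cytoplasm, had 10.07, 10.08, 10.13 and 10.04 in the shMKRN1 arrays, against 9.85, 10.06, 10.02 and 10.10 in the shGFP arrays. Array shGFP 1, the lowest of its group for Cyp26a1, was also the lowest for Crabp1, Crabp2, Aldh1a3, Rara and Rarb. The share of all genes lowest in that array was not computed, so this is not read as particular to these genes. The Crabp1 difference was 0.07 (SE 0.062; interval -0.07 to 0.21). Crabp2, whose protein delivers retinoic acid to receptors in the nucleus, had 8.43, 8.27, 8.30 and 8.23 in the shMKRN1 arrays, against 8.16, 8.32, 8.28 and 8.21 in the shGFP arrays. Its difference was 0.06 (SE 0.061; interval -0.07 to 0.20).

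None of the receptor genes had separate groups. Rarg, the receptor gene known as a mediator of retinoic acid in embryonic stem cells and embryonal carcinoma cells, had the least spread of the 10 genes. Its level was 10.35, 10.24, 10.37 and 10.33 in the shMKRN1 arrays, against 10.21, 10.27, 10.18 and 10.27 in the shGFP arrays. Of the 4 shMKRN1 values 3 exceeded all shGFP values, and the difference was 0.09 (SE 0.051; interval -0.03 to 0.20). Rara, the broadly expressed receptor gene, had 9.54, 9.28, 9.40 and 9.38 in the shMKRN1 arrays, against 9.37, 9.53, 9.40 and 9.42 in the shGFP arrays, with a difference of -0.03 (SE 0.066; interval -0.18 to 0.12).

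Rarb, the receptor gene whose promoter repeat is shown above beside that of Cyp26a1, lay within the range of silent genes in both groups. Its level was 6.27, 6.14, 6.16 and 6.24 in the shMKRN1 arrays, against 6.08, 6.14, 6.09 and 6.45 in the shGFP arrays. None of the 8 arrays was above the receptor-gene level, whether taken over all arrays or on its own array. The difference was 0.01 (SE 0.083; interval -0.17 to 0.20), and a change in Rarb below background could not be seen. For the 9 genes other than Cyp26a1 the intervals together ran from -0.23 to 0.35, which is 0.85-fold to 1.28-fold, and changes of that size or less were not resolved.

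**Figure D2:**
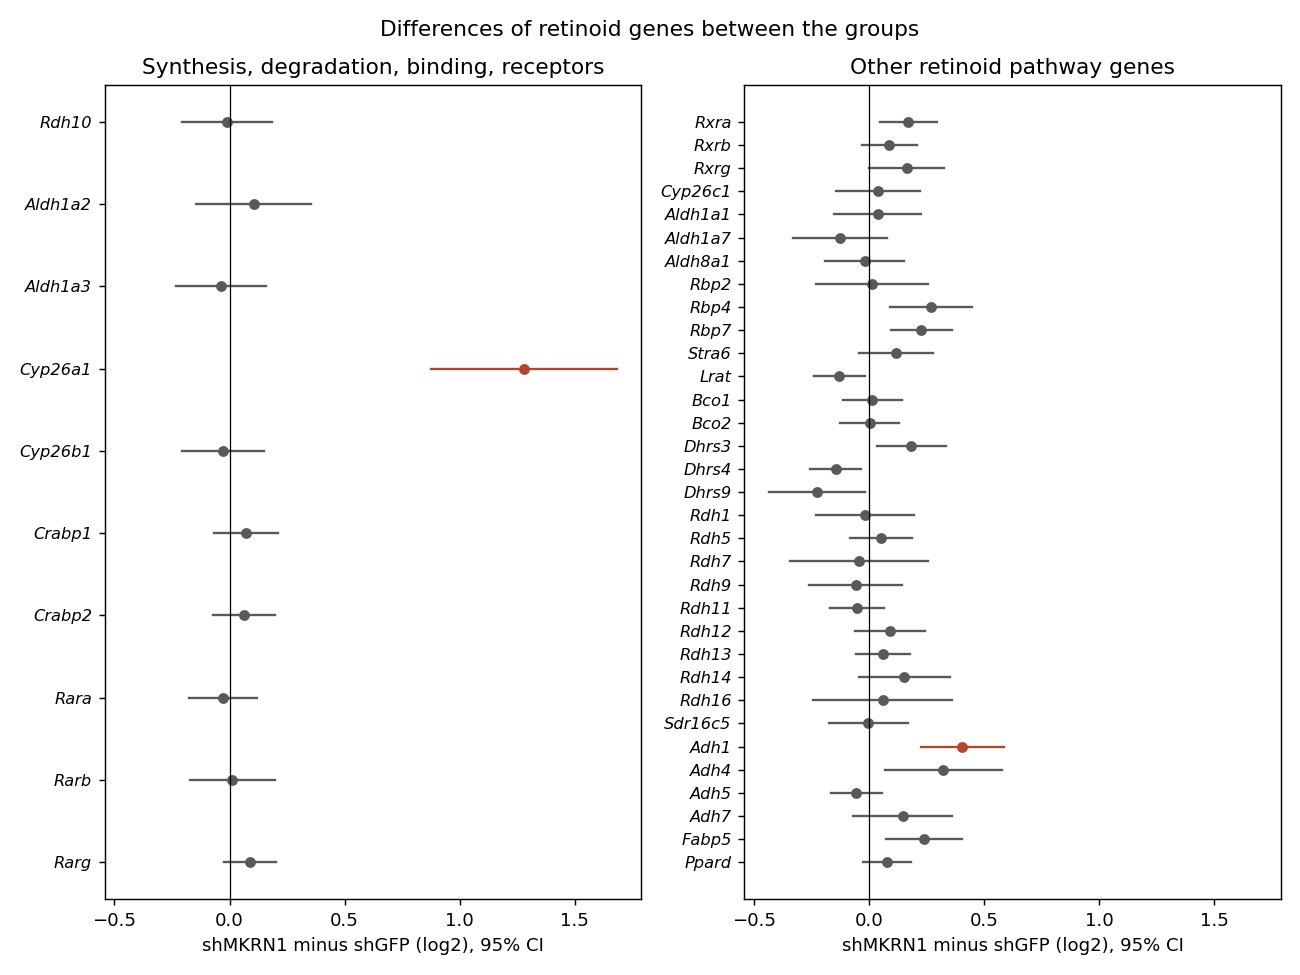
Difference between shMKRN1 and shGFP (log2, point) with its 95% confidence interval (line) for the 10 genes (left, with no test) and for 33 other retinoid pathway genes (right); genes past the limma threshold are red. Cyp26a1 lies at 1.28 and Adh1 at 0.40, and the intervals of the other 9 genes on the left all include 0.

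Within the groups, these genes were compared array by array. Deviations from the group mean, over 8 arrays, were positively correlated for 34 of the 45 pairs of these genes and negatively for 11 (median Pearson r 0.29). The highest r, 0.88, was between Cyp26b1 and Rarb, which lay below the level of silent receptors on all 8 arrays. The lowest, -0.68, was between Aldh1a3 and Rdh10. These pairs share the 8 arrays, and arrays shGFP 7 and shMKRN1 8 stand apart from the rest of their groups on the leading component of all genes. In shGFP 7, 5 of the 10 genes had the highest value of their group, as did 38.3% of all genes. In shMKRN1 8, 4 had the lowest value of their group, as did 34.4% of all genes. Neither count is read as particular to these genes. Pair correlations were not computed for other sets of genes. By the same deviations, the genes most like Cyp26a1 among 14011 above the level of silent receptors were Fsd1 and Gpr160 (r = 0.99 each over 8 arrays), with differences between the groups of -0.12 (SE 0.050) and 0.14 (SE 0.069). For the 8 other genes above that level the best matches had r from 0.96 to 0.997. With 8 arrays and so many genes, values this high are what a search for the highest returns, and they are given as a description.

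**Figure D3:**
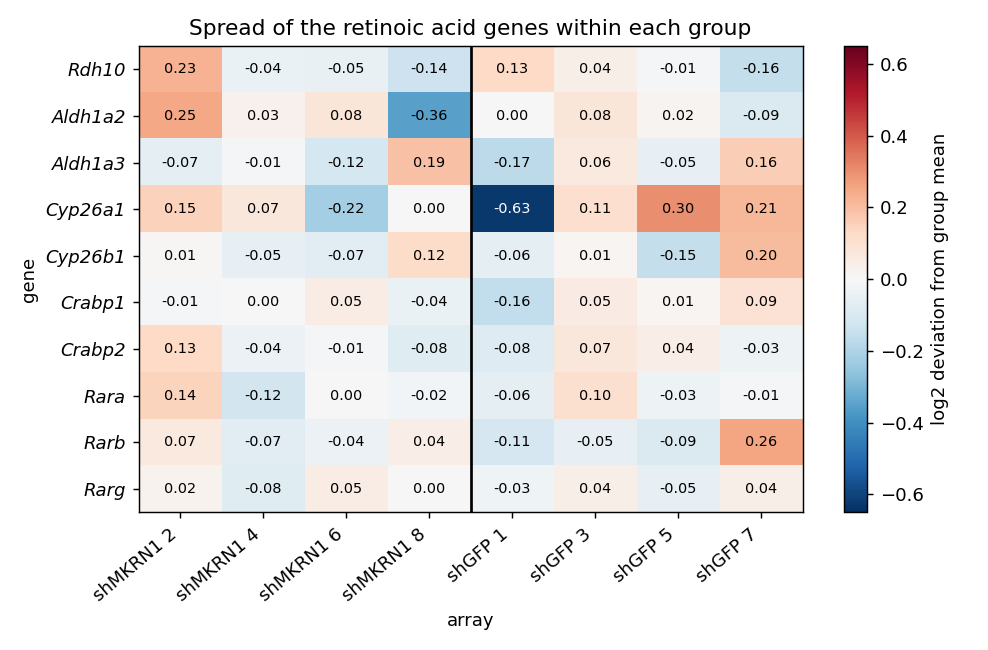
Deviation of each array from its group mean (log2, number and colour) for the 10 genes in rows and the 8 arrays in columns, shMKRN1 left of the line and shGFP right of it. The lowest deviation is that of Cyp26a1 in shGFP 1 (-0.63), and shGFP 7 is above its group mean for Cyp26a1, Cyp26b1, Aldh1a3 and Rarb, among others.

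Of the other genes of the pathway, the alcohol dehydrogenase gene Adh1 passed and no other did. The list comprised 35 genes of retinol uptake, storage, oxidation, delivery and receptor partners, of which 33 had a probe set of their own, 15 of them at or below the level of silent receptors. In that list 1 of 33 rose and none fell, beside 4.49% of all genes that passed in either direction. The median difference was 0.05, against 0.01 for all genes. Of the 33 differences 22 were positive, beside 10519 of 19937 for all genes. At an unadjusted p under 0.05 there were 10 of 33 (7 higher, 3 lower), or 30.3%, beside 19.5% of all genes. Adh1, whose enzyme oxidises retinol and is known in mice for clearing an excess of vitamin A, had levels of 6.90, 6.99, 6.70 and 6.67 in the shMKRN1 arrays, against 6.41, 6.48, 6.29 and 6.46 in the shGFP arrays. All shMKRN1 arrays were above the receptor-gene level of 6.50 and all shGFP arrays below it. Adh1 rose by 0.40 (SE 0.081; limma adjusted p = 0.0235), or 1.32-fold. Without 1 array the difference stayed between 0.35 and 0.45, and 3 of the 8 fits kept the call. Over all alternatives its adjusted p ran from 0.0105 to 0.0753.

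The genes of the pathway with the highest mean levels, fixed by rule, were Adh5 and Ppard. Adh5, the ubiquitous formaldehyde-clearing dehydrogenase gene, averaged 11.26 ± 0.058 in shMKRN1 and 11.32 ± 0.038 in shGFP (difference -0.06, SE 0.050; limma adjusted p = 0.619). Ppard, a nuclear receptor gene that can respond to retinoic acid carried by FABP5, averaged 9.99 ± 0.029 in shMKRN1 and 9.91 ± 0.043 in shGFP (difference 0.08, SE 0.047; adjusted p = 0.408). The RXR genes, the carrier genes, Dhrs4 and Lrat below were chosen after their values were seen. Rxra, the partner gene of the retinoic acid receptors in most tissues, averaged 8.76 ± 0.078 in shMKRN1 and 8.59 ± 0.052 in shGFP (difference 0.17, SE 0.056; adjusted p = 0.122), and passed when genes at or below the median level were left out. The differences of Rxrb and Rxrg were 0.09 and 0.16, with adjusted p-values of 0.42 and 0.259. Retinol carrier genes with separate groups were Rbp4 (difference 0.27, SE 0.080; limma adjusted p = 0.0923) and Rbp7 (0.23, SE 0.060; adjusted p = 0.0637), and neither passed. The mean of Rbp4 over all arrays, 6.45, was below the level of silent receptors, as were all its shGFP arrays. In the pathway list, separate groups were seen for 5 genes as higher and 2 as lower, beside 14.1% of all genes. The lower were Dhrs4 (-0.14, SE 0.050; limma adjusted p = 0.137) and Lrat (-0.13, SE 0.050; adjusted p = 0.182), with Lrat below the level of silent receptors.

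Genes known to respond to retinoic acid were read from a list of 26, of which 22 had a probe set of their own. Of these 22, 7 were at or below the level of silent receptors. None of the 22 passed limma, where 4.49% of all genes did, and in a list of this size that share amounts to few genes. At an unadjusted p under 0.05 there were 2 of 22, both higher, or 9.09%, beside 19.5% of all genes. Separate groups were seen for 1 of the 22, Dhrs3, against 14.1% of all genes. The median difference was 0.02, and 12 of 22 were positive. Lamb1, the laminin gene known from retinoic acid-treated F9 cells, averaged 9.52 ± 0.062 in shMKRN1 and 9.44 ± 0.13 in shGFP (difference 0.08, SE 0.071; limma adjusted p = 0.604). Tgm2, the tissue transglutaminase gene, had 9.45, 9.12, 8.96 and 8.64 in the shMKRN1 arrays, against 9.94, 9.65, 9.06 and 8.98 in the shGFP arrays. Its values spread over more than the distance between the groups (difference -0.36, SE 0.23; adjusted p = 0.437). The remaining genes named here from this list were chosen after their values were seen. Dhrs3, a reductase gene that returns retinaldehyde to retinol, averaged 7.32 ± 0.058 in shMKRN1 and 7.13 ± 0.12 in shGFP (0.18, SE 0.067; adjusted p = 0.163). The difference was 0.12 (SE 0.072; adjusted p = 0.423) for the retinol receptor gene Stra6. Of the 8 Hox genes measured in the list, 6 had a negative and 2 a positive difference, with a median of -0.04. Hoxa3 and others, 5 of the 8, were at or below the level of silent receptors, where a change could not be seen. The Hox differences ran from -0.09 for Hoxa3 to 0.11 (SE 0.096; adjusted p = 0.625) for Hoxb1, an early Hox gene with retinoic acid response elements. Stra8, the germ cell gene that retinoic acid induces before meiosis, lay below the level of silent receptors on all arrays (5.18 in shMKRN1, 4.89 in shGFP).

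**Figure D4:**
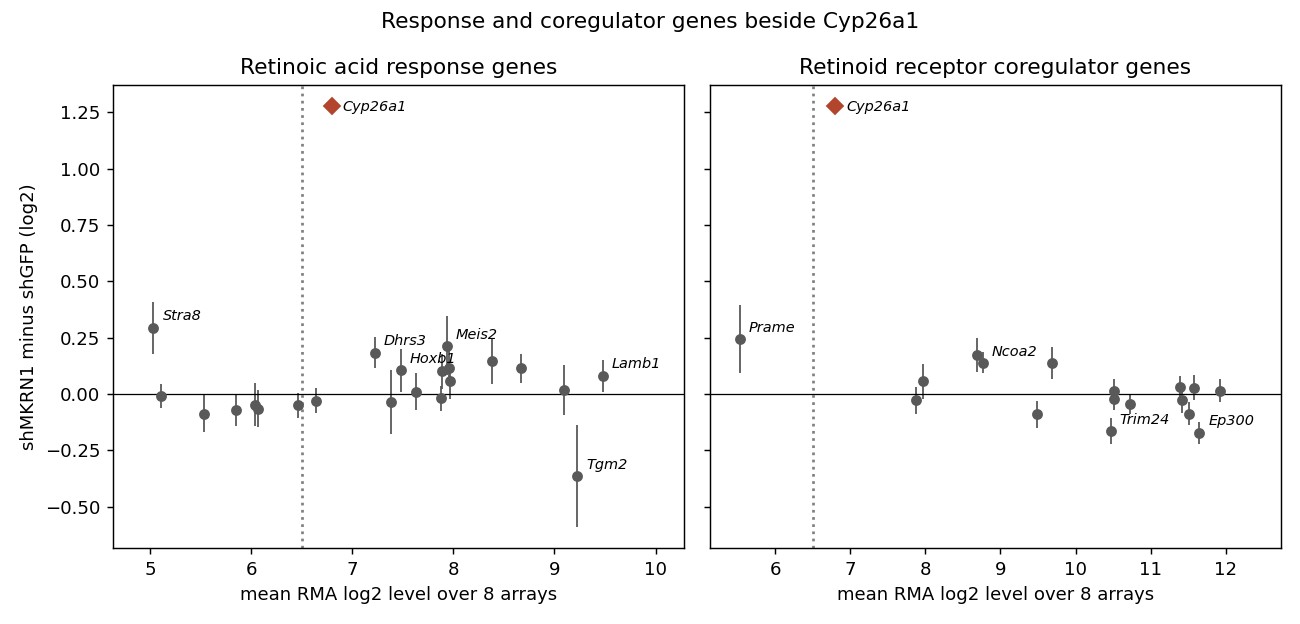
Difference between shMKRN1 and shGFP (log2 ± SE) against the mean level over 8 arrays for 22 retinoic acid response genes (left) and 17 coregulator genes (right), with Cyp26a1 as a red diamond and the level of silent receptors as a dotted line at 6.50. No gene of either list passed the limma threshold, and all lie below Cyp26a1 at 1.28.

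Coregulators of the receptors were measured by 17 of 20 listed genes. None of the 17 passed limma, again beside 4.49% of all genes, and 4 had an unadjusted p under 0.05 (2 higher, 2 lower), or 23.5%, beside 19.5%. Separate groups were seen for 3 of the 17, beside 14.1% of all genes. The median difference was 0.01. Carm1, the arginine methyltransferase gene of nuclear receptor coactivation, averaged 11.94 ± 0.039 in shMKRN1 and 11.92 ± 0.055 in shGFP (difference 0.02, SE 0.050; limma adjusted p = 0.91). Ep300, the histone acetyltransferase gene, averaged 11.56 ± 0.024 in shMKRN1 and 11.74 ± 0.057 in shGFP. Its groups did not overlap, and its difference of -0.17 (SE 0.049; limma adjusted p = 0.0819) missed the threshold.

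The promoter repeat of Cyp26a1 and Rarb was looked for in other measured genes after the values were seen, so these values are a description. Of 31 genes with the repeat in a window, 11 were measured under a symbol of their own, Cyp26a1 and Rarb included. The differences of the other 9 ran from -0.25 to 0.44, with a median of -0.07. The highest was that of Blvrb, a biliverdin reductase gene (9.82 in shMKRN1, 9.38 in shGFP), and the lowest that of the synapse gene Syndig1 (8.55 in shMKRN1, 8.80 in shGFP). Both of these passed the fit across all genes and had separate groups, which 4.49% and 14.1% of all genes did, and the groups of the other 7 overlapped. A repeat in a window is a match of letters, and nothing is read from it about binding.

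The targeted gene and the cell identity were checked on the same arrays. Mkrn1 averaged 9.84 ± 0.036 in shMKRN1 and 10.44 ± 0.069 in shGFP (limma adjusted p = 0.000767), so the shMKRN1 level was 0.662 of the shGFP level on the linear scale. All 8 embryonic stem cell markers were above the level of silent receptors, with list means of 11.07 to 11.16 in shMKRN1 arrays and 11.05 to 11.16 in shGFP arrays. Of these 8, the pluripotency factor gene Nanog passed, higher by 0.25 with separate groups (SE 0.050; limma adjusted p = 0.0256), and the other 7 did not pass. Fibroblast markers averaged 6.89 to 7.11 in shMKRN1 arrays and 6.82 to 6.98 in shGFP arrays, with 2 of 8 past the threshold (Pdgfrb and Col1a1, both higher) and 2 of 8 (Postn and Lum) at the level of silent receptors. Primitive endoderm markers averaged 7.67 to 7.87 in shMKRN1 arrays and 7.64 to 7.89 in shGFP arrays, with none of 6 past the threshold by limma or at an unadjusted p under 0.05. Neural ectoderm markers averaged 8.25 to 8.32 in shMKRN1 arrays and 8.53 to 8.60 in shGFP arrays, with 1 of 5 (Neurod1) past the threshold, lower, and all 4 shMKRN1 list means below all shGFP list means. The neural ectoderm differences were -0.67 for Neurod1 and from -0.24 to -0.07 for the others, so Neurod1 weighs most in these list means. Over all genes 4.49% passed in either direction, and the marker lists are too short for their counts to be read against that share. The part of other cell types in the Cyp26a1 and Adh1 differences was not tested.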

How the data were processed

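Total RNA was measured on 8 Affymetrix arrays, grouped by the hairpin in the sample titles. The deposited table holds log2 expression values of 34760 probe sets made by the authors with RMA (version not given in the sources used here), as the submitters' processing notes state. RMA usually brings arrays to a common distribution and understates changes of dim probe sets. Array medians lay between 7.14 and 7.24. The interquartile range of the log2 values ran from 3.05 in shGFP 7 to 3.30 in shMKRN1 4, so the deposited arrays differ in spread. Precision is limited by the number of arrays.

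Gene names came from the platform annotation (21640 probe sets with 1 symbol, 1321 with several, 11799 with none); the probe set with the highest mean was kept per symbol. The fit used limma 3.58.1 in R 4.3.3 (lmFit, eBayes, 6 residual and 4 prior degrees of freedom), two-sided, adjusted by Benjamini-Hochberg over 19937 genes at 0.05, with no filter or covariate, and was tested on simulated data. Promoters came from RefSeq, GRCm38.p6.

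The 10 genes and the lists were chosen with earlier results of these data known. Named genes were the 10, Mkrn1, list genes past the threshold, the 2 further genes per list with the highest mean and the closest matches within groups; others are marked. Alternatives were other scalings, a level filter, a trend, array weights, other probe set rules and leaving out arrays; leaving out shMKRN1 8 with shGFP 7 was chosen after seeing the data.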

Additional observations from a re-analysis of the deposited data

Results flagged for a closer look

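Rarb in array shGFP 7 was 6.45, against 6.08 to 6.14 in the other 3 shGFP arrays, a gap of 0.846 of the group's range, past Dixon's 95% critical value for 4 values. It was the only one of 24 groups of 4 values checked (the 10 genes, Mkrn1 and Adh1 in each hairpin) with a sample that far out, and chance alone gives about 1 in 20. In the same array the silent receptor genes also reached higher, with a 95th percentile of 6.74 against 6.41 to 6.62 in the other 7 arrays. The part of that shift in the Rarb value was not tested.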

How the results depend on the processing

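Cyp26a1 stayed higher and past the threshold in all 14 alternatives that could be fitted to it (1.07 to 1.38, both ends reached without 1 array), and none of the other 9 genes passed in any of 131 fits or moved by its spread within groups. With only genes above the median level, Cyp26a1 was not in the fit and 0 of 5 genes passed. For the other pathway genes, where 1 passed, 0 passed with p-values adjusted over every probe set, 2 with median centring (Adh1, Rbp4), 3 with quantile normalization (Adh1, Dhrs4, Rbp4), 3 above the median level (Dhrs4, Fabp5, Rxra; Adh1 was not in that fit), 8 with array weights, and 0 to 2 without 1 array (0 without shGFP 1 or 3 or shMKRN1 2 or 4, 2 without shMKRN1 8; the 1 without shGFP 5 was Fabp5, not Adh1). For the response genes, 2 passed with array weights (Dhrs3, Stra8) and 1 without shMKRN1 8 and shGFP 7 together (Stra8); 0 passed without any 1 array. For coregulators, 1 passed with quantile normalization (Trim24), 1 with an intensity trend (Ep300), 2 above the median level (Ep300, Ncoa2), 2 with array weights (Ep300, Trim24), and 0 to 1 without 1 array (Ep300 without shGFP 7). Over all genes the count of 896 was 378 adjusted over every probe set, 1595 above the median level, 1548 with a trend, 2757 with array weights, and 309 to 852 without 1 array (353, 387 and 309 without shMKRN1 2, 4 and 6; 505 and 324 without shGFP 1 and 3). Dhrs4, Fabp5, Trim24 and Ncoa2 fall outside the naming rule and were picked with their values known. The causes were not tested, beyond fewer genes or arrays entering a fit. No paired analysis was made because the groups share no replicate number, and no label ties neighbouring array numbers to each other. The levels of Rdh10 and Tgm2, picked with their values known, fell with rising array number in both groups. So did those of the response gene Meis2, the Cyp26a1 neighbour Myof and the endoderm marker Gata6, picked in the same way. The share of all genes with such a fall was not computed. A term for array number was not fitted, and the part of such a fall in the standard errors was not tested. Genes near the silent receptor level, Rarb and shGFP Cyp26a1 among them, are limited by background.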
